A study of Rattus norvegicus with 4 samples.

Results

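RNA of whole carotid bodies (CBs) was examined for the genes of GABA and glutamate receptor subunits in neonatal and adult rats. The CB is the small sense organ at the carotid bifurcation, and its glomus cells respond to low arterial oxygen. The subunit genes were picked by symbol, and 47 of the 32883 genes listed were members. They comprised 19 GABA-A, 2 GABA-B, 4 AMPA, 5 kainate, 7 NMDA, 2 delta and 8 metabotropic glutamate receptor genes.

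Neonates were Sprague Dawley pups of postnatal day 5 and adults were Sprague Dawley rats of postnatal day 21, and no other treatment is named for either age. The pups were killed with urethane. There were 2 libraries per age, each from the pooled CBs of 6 pups or of 3 adults, and both sexes were included. These numbers follow the series' description, and the paper describes larger pools and more replicates. The glomus cell markers Th, Ddc and Slc18a1 were present in all 4 libraries, and the 13 glomus cell markers together had 10142 and 8712 CPM (counts scaled to library size in units of 1e+06, with TMM factors) in neonates and 10778 and 8961 CPM in adults. Single glomus cell markers moved apart, and 5 of the 13 passed the adjusted p in each direction. Dbh, for the enzyme that makes noradrenaline, was called higher in neonates (log2 fold change, neonate over adult, of 1.31), and the potassium channel gene Kcnk9 (-3.37) and the olfactory receptor gene Olr59 (-1.04) were called higher in adults.

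Library totals ran from 36286191 to 39476110 estimated counts, and 3 counts, taken as the floor of detection, correspond to at most 0.0845 CPM. This floor covers counting error only. Other cell types moved with age or library. Parathyroid markers summed to 1830 and 214 CPM in neonates against 0.147 and 0.151 CPM in adults, and Pth itself was at 0 counts in both adult libraries. The 11 peripheral neuron markers summed to 3316 and 3031 CPM in neonates against 2293 and 1883 CPM in adults. By edgeR 9 of the 11 passed an adjusted p of 0.05 in that direction, and 1, Elavl3, passed it toward adults (log2 fold change -0.53). The summed markers of macrophages were higher in adults (53.5 and 62.2 against 97.4 and 97.8 CPM). Of these 5 markers, 4 passed the adjusted p toward adults and 3 of them were called. Cd68 leaned toward neonates (log2 fold change 0.32, adjusted p = 0.24 in edgeR). The summed markers of pericytes and smooth muscle were also higher in adults (1444 and 1513 against 2276 and 2415 CPM). In the latter list of 8, Rgs5 alone was called (302 and 265 against 1009 and 971 CPM), and 4 markers passed the adjusted p toward adults and 2, Pdgfrb and Kcnj8, toward neonates. In whole tissue, fewer cells of a type and less RNA per cell cannot be told apart. The part of these shifts in the results on the receptor genes was not tested.

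GABA opens chloride channels built from several GABA-A subunits and also acts through the G protein-coupled GABA-B receptor, which needs both of its subunits to reach the membrane and signal. Glutamate opens AMPA, kainate and NMDA receptor cation channels, each assembled from subunits of its own family, and activates metabotropic receptors that couple to G proteins. In brain, subunit make-up of these channels changes with postnatal age. In the CB, GABA is known as an inhibitory modulator of chemosensory activity.

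Of the 47 members, 19 were among the 13844 genes tested, which reached 1 CPM in 2 or more libraries. A gene was called at an adjusted p under 0.05 and a change of at least 2-fold. Higher in neonates were 3 of the 19 members tested, Gabbr2 and Grik5 among them (7.68% of all genes tested were called in this direction). Higher in adults were 6 of the 19, among them Gabra3, Gria1, Grik3 and Grm7 (13.2% of all genes tested). The remaining 10 tested members were not called, and 3 of these passed the adjusted p with less than a 2-fold change, so that 12 of 19 passed it at any fold (62.3% of all genes tested). Scaled to library size alone, which moved the median of all genes to -0.25, 2 members were called higher in neonates and 7 in adults. The median log2 fold change of the members tested, neonate over adult, was 0.08 and that of all genes tested was -0.0030. The ages did not overlap in 15 of the 19 members tested, and 83.0% of all genes tested had no overlap. In each subfamily except the NMDA and delta receptors at least 1 member was called, and the GABA-A and kainate receptor genes had members called in both directions.

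**Figure D1:**
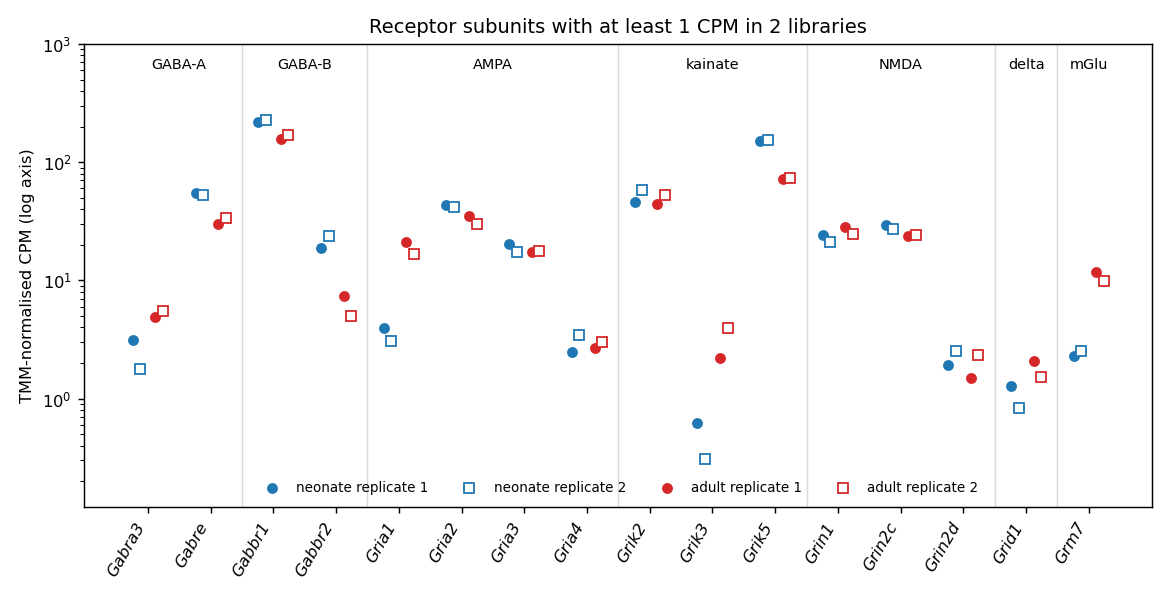
Level of 16 of the receptor subunit genes tested, in each of the 4 libraries, as TMM-normalised CPM on a log axis. Filled circles and open squares are replicates 1 and 2, blue for neonates (day 5) and red for adults (day 21). Gria1, Grm7 and Grik3 lie higher in both adult libraries and Gabbr2 and Grik5 lie higher in both neonatal libraries.

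A promoter window of 300 bases around the start of the gene was given by RefSeq (assembly GRCr8, matched by symbol) for 30 of the 47 members. The 100 bases just before the start are shown for 2 members called higher in neonates and 2 called higher in adults, one of them with few reads (Gabra5, described with the GABA-A genes), because they lie at the extremes of CG content among the called members with a window. Capitals mark CG dinucleotides.
Gabbr2, chr5:66083696-66083795, minus strand: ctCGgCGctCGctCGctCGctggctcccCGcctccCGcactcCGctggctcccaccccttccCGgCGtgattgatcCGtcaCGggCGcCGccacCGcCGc
Gabra5, chr1:117516607-117516706, minus strand: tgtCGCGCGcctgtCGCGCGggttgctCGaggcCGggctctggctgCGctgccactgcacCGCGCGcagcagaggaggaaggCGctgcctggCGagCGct
Grik3, chr5:143052342-143052441, plus strand: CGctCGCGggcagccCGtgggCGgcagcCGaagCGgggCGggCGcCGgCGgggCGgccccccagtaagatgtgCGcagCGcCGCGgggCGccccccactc
Gabra3, chrX:155543871-155543970, minus strand: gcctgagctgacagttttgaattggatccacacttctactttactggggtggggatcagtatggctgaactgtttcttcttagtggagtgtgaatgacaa

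Gabbr2 and Gabra5, higher in neonates, had 47 and 42 CG dinucleotides in the window of 300 bases, counts reached by 1.26% and 2.4% of all 33469 promoters in the table. Grik3, higher in adults, had 49, a count reached by 0.866% of promoters, and Gabra3, also higher in adults, had 0. Grik5 (11) and Grm7 (9) were near the median of the 30 members, which was 11 against 7 for all promoters. The letters TGACGTCA (the cyclic AMP response element) were searched on both strands and found in 0 of the 30 windows, against 1.83% of all promoters. The right arm of the RE1 element bound by the repressor REST, GGACAGC, was found in the windows of Gabrg3 and Gabrr3 (6.59% of all promoters), and the left arm, TTCAGCACC, in 0 of the 30 (0.356% of all promoters).

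Of the 19 GABA-A genes 5 were tested, and 1 was called higher in neonates and 3 higher in adults. Among all genes tested, 7.68% and 13.2% were called in these directions. Gabra3 (ENSRNOG00000056558), for the α3 subunit, had 3.13 and 1.78 CPM in neonates and 4.86 and 5.52 CPM in adults. It was 2.11-fold higher in adults, at a log2 fold change of -1.08, a standard error (SE) of 0.32 and an adjusted p of 0.016 (edgeR, quasi-likelihood, Benjamini-Hochberg), and the spread between replicates was wider in neonates than in adults. The call of Gabra3 was lost without neonate replicate 2 (log2 fold change -0.71, adjusted p = 0.043) and without adult replicate 2 (log2 fold change -1.01, adjusted p = 0.082).

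Gabre encodes the ε subunit, found mostly outside the forebrain. Gabre had 55.1 and 52.4 CPM in neonates and 29.9 and 33.6 CPM in adults. Its log2 fold change of 0.76 (SE 0.098, adjusted p = 0.00019) passed the adjusted p but was below 2-fold.

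The other 14 GABA-A genes did not reach the filter. Gabra6, Gabrb1 and Gabrr3 had 0 counts in all 4 libraries. Gabrb2, Gabrd, Gabrp, Gabrq and Gabrr1 had at most 6 counts in any library, and Gabra2, Gabrg1 and Gabrg3 at most 9. Gabra4, for the α4 subunit, had 10 and 32 counts in neonates and 10 and 19 in adults, and Gabrr2, for the ρ2 subunit, had 5 and 17 against 25 and 21.

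Gabra5, for the α5 subunit, an extrasynaptic subunit that is abundant in the hippocampus, stood apart among these. It had 18 and 66 counts in neonates and 6 and 3 counts in adults. With the filter lowered to 0.1 CPM in 2 libraries, which leaves 16544 genes, Gabra5 was called higher in neonates (log2 fold change 3.34, SE 0.85, adjusted p = 0.0093 in edgeR, where 7.36% of those genes were called in this direction). At this filter 12 of 32 members were called in either direction (19.7% of genes). The log2 fold change of Gabra5 was 2.14 without neonate replicate 2 and 3.98 without neonate replicate 1. Its adjusted p was 0.061 without adult replicate 2 and 0.038 or less without any other library. The 10 markers of sustentacular cells and Schwann cells together had 1625 and 2986 CPM in neonates and 2585 and 2788 CPM in adults, and the myelin gene Mbp had 137 and 401 CPM against 199.5 and 212 CPM. Their part in the level of Gabra5 was not tested.

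GABA-A genes lie in clusters on the chromosomes. In RefSeq's gene order 16 members lie in 5 clusters with 0 or 1 protein-coding genes between neighbouring members. Gabre and Gabra3, with 1 gene between them, had log2 fold changes of 0.76 and -1.08. In the cluster of Gabrb1, Gabra4, Gabra2 and Gabrg1 no member had more than 32 counts in a library.

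Both GABA-B genes were lower in adults, Gabbr2 by more than Gabbr1. Gabbr1 (ENSRNOG00000000774), for the subunit that binds GABA, had 218 and 228 CPM in neonates and 157 and 170.0 CPM in adults, at a log2 fold change of 0.45 (SE 0.080, adjusted p = 0.0012). This is below 2-fold, and the adjusted p was 0.073 with scaling to library size alone. Gabbr2 (ENSRNOG00000008431), for the subunit that couples to the G protein, had 18.8 and 23.5 CPM in neonates and 7.41 and 4.99 CPM in adults. It was 3.41-fold higher in neonates (log2 fold change 1.77, SE 0.21, adjusted p = 0.00011). Within each library the log2 count ratio of Gabbr2 to Gabbr1 was -3.53 and -3.27 in neonates and -4.40 and -5.09 in adults, a difference of 1.34.

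Of the AMPA receptor genes, Gria1 alone was called. Gria1 (ENSRNOG00000045816), for the GluA1 subunit, whose phosphorylation and insertion at synapses are known from long-term potentiation, had 3.97 and 3.06 CPM in neonates and 21.3 and 16.7 CPM in adults. This was 5.39-fold higher in adults, at a log2 fold change of -2.43 (SE 0.21, adjusted p = 2.2e-05). All alternatives kept the call, with log2 fold changes from -2.68 to -2.24.

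Gria2, for the GluA2 subunit that limits the calcium permeability of the channel, had 43.1 and 41.7 CPM in neonates and 35.3 and 29.8 CPM in adults. Its log2 fold change of 0.38 (SE 0.11, adjusted p = 0.012) was below 2-fold. The adjusted p was 0.16 without adult replicate 2 and 0.28 with scaling to library size alone. Gria3 (20.4 and 17.5 against 17.3 and 17.6 CPM) and Gria4 (2.48 and 3.48 against 2.67 and 3.02 CPM) overlapped between ages. The 95% interval of the log2 fold change ran from -0.16 to 0.40 for Gria3 and from -0.63 to 0.76 for Gria4. The log2 count ratio of Gria1 to Gria2 was -3.44 and -3.77 in neonates and -0.73 and -0.84 in adults.

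Kainate receptor genes had members called in each direction. Grik5 (ENSRNOG00000020310), for the GluK5 subunit that binds glutamate with high affinity and works together with other kainate subunits, had 151 and 155 CPM in neonates and 72.6 and 73.8 CPM in adults. It was 2.09-fold higher in neonates (log2 fold change 1.06, SE 0.073, adjusted p = 8.0e-06). Replicates of an age lay close together and far from the other age. Scaled to library size alone, Grik5 had a log2 fold change of 0.82 and was no longer past 2-fold.

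Grik3 (ENSRNOG00000008992), for the GluK3 subunit, had 0.62 and 0.306 CPM in neonates and 2.18 and 3.93 CPM in adults, from 22 and 11 against 89 and 156 counts. It was 6.57-fold higher in adults (log2 fold change -2.72, SE 0.48, adjusted p = 0.0012). Grik3 reached the filter of 1 CPM through the adult libraries alone, so that only a call toward adults was possible. Without either adult library it missed the filter of 1 CPM, and with the lower filter its log2 fold change stayed between -3.32 and -2.26 when any library was left out, with adjusted p up to 0.028.

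Grik2, for the widely expressed GluK2 subunit, had 45.8 and 57.7 CPM in neonates and 44.5 and 53.1 CPM in adults, which overlapped (log2 fold change 0.08, 95% interval from -0.21 to 0.38). The log2 count ratio of Grik5 to Grik2 was 1.72 and 1.42 in neonates and 0.70 and 0.47 in adults. Grik1 had 12 and 64 counts in neonates and 9 and 8 in adults. At the lower filter it was called higher in neonates (log2 fold change 2.29, SE 0.84, adjusted p = 0.046), but this rested on neonate replicate 2, without which the log2 fold change was 0.66 (adjusted p = 0.51), against 3.04 without neonate replicate 1. The adjusted p of Grik1 was 0.14 without adult replicate 1 and 0.16 without adult replicate 2. Grik4, at 23 and 33 against 35 and 17 counts, overlapped.

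None of the NMDA receptor genes was called with the filter of 1 CPM. Grin1, for the obligatory GluN1 subunit, had 24.2 and 21.0 CPM in neonates and 28.2 and 24.7 CPM in adults (log2 fold change -0.23, 95% interval from -0.49 to 0.04, adjusted p = 0.12). Grin2c, for GluN2C, known from cerebellar granule cells, had 29.4 and 27.0 CPM against 23.8 and 24.1 CPM (log2 fold change 0.24, 95% interval from 0.01 to 0.46, adjusted p = 0.064). Grin2d had 1.91 and 2.53 CPM against 1.497 and 2.32 CPM. These intervals leave out a 2-fold change for Grin1 and Grin2c but not for Grin2d, whose interval reached 1.05.

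Grin2a and Grin2b, for the GluN2A and GluN2B subunits that dominate in forebrain, had between 6 and 21 counts in every library. Neither was called at the lower filter (log2 fold changes 0.21 and 0.33, standard errors 0.80 and 0.70). Grin3a, for GluN3A, had 6 and 7 counts in neonates and 30 and 27 in adults, and at the lower filter it was called higher in adults (log2 fold change -1.96, SE 0.70, adjusted p = 0.040, where 12.3% of genes were called in this direction). Without adult replicate 1 or 2 the adjusted p of Grin3a was 0.17 or 0.14. Grin3b had 2 counts in each library.

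Among the metabotropic glutamate receptor genes Grm7 alone reached the filter. Grm7 (ENSRNOG00000005662) encodes mGlu7, a presynaptic receptor that inhibits transmitter release and has a low affinity for glutamate. It had 2.31 and 2.53 CPM in neonates and 11.7 and 9.85 CPM in adults, 4.45-fold higher in adults (log2 fold change -2.15, SE 0.23, adjusted p = 6.7e-05). The call of Grm7 was kept under all alternatives, with log2 fold changes from -2.40 to -2.05. The rest of the family was near or under the floor. Grm6 had 7 and 9 counts in neonates and 3 and 0 in adults, and Grm2, Grm3, Grm4, Grm5 and Grm8 had at most 4 counts in any library.

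Among the delta receptor genes, Grid1 had 1.27 and 0.835 CPM in neonates and 2.06 and 1.54 CPM in adults (log2 fold change -0.77, SE 0.39, adjusted p = 0.11). Grid1 passed the call rule without neonate replicate 1, at -1.10 (adjusted p = 0.044), and with scaling to library size alone, at -1.02 (adjusted p = 0.046).

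**Figure D2:**
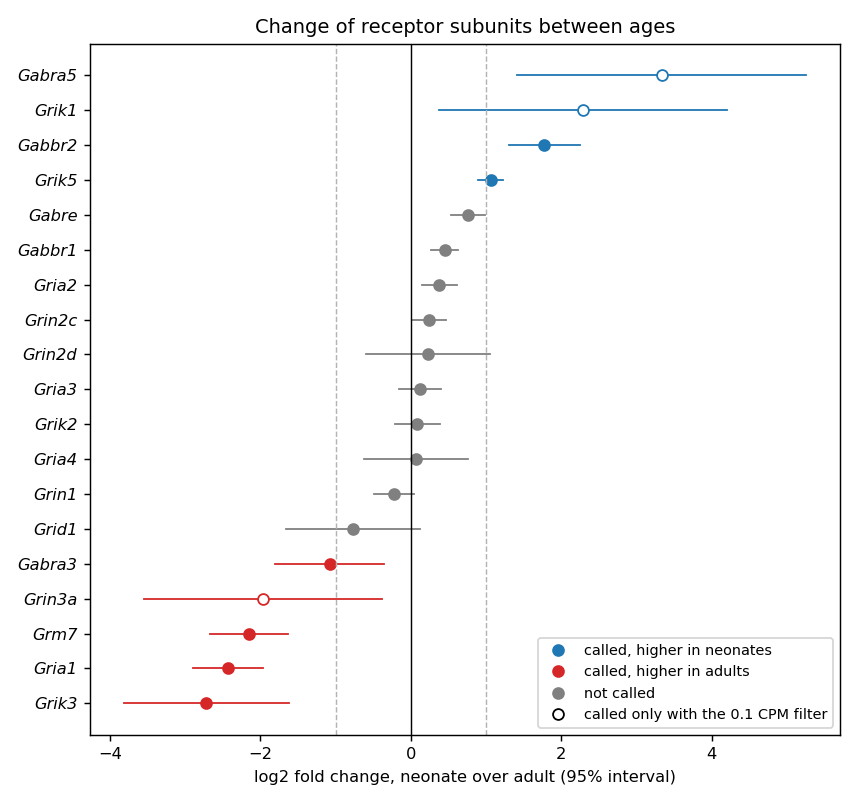
Log2 fold change, neonate over adult, of 16 of the members tested and of 3 members called at the lower filter only (open circles), with 95% intervals as lines. Blue and red mark members called higher in neonates and in adults, grey those not called, and dashed lines mark 2-fold. The members span from -2.72 for Grik3 to 3.34 for Gabra5, with the NMDA receptor genes Grin1, Grin2c and Grin2d around 0.

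Altogether 6 ratios of subunits within a library were compared. Besides those given above, the log2 count ratio of Grin2c to Grin1 was 0.28 and 0.36 in neonates and -0.24 and -0.04 in adults. In all 6 ratios the ages did not overlap, and the exact two-sided permutation test over libraries gave p = 0.333 (adjusted 0.333), the smallest that 2 against 2 libraries allow. Transcript lengths were not used here, so that a ratio is read only for its change between ages.

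Genes that make, load, clear or anchor the transmitters and receptors were taken from a list of 78, of which 73 were matched and 57 tested. Of the 57, 5 were called higher in neonates and 7 higher in adults, against the 7.68% and 13.2% of all genes tested given above. Enzymes for GABA synthesis, Gad1 (2.59 and 2.09 against 1.69 and 2.14 CPM) and Gad2 (1.30 and 3.45 against 1.18 and 1.36 CPM), were low and overlapped between ages. None of the vesicular transporters reached the filter of 1 CPM, and Slc17a6 alone was above the floor in any library. Slc32a1, which loads GABA and glycine into vesicles, and Slc17a8 had 0 counts in all 4 libraries, and 0 counts allow a level of up to 0.0845 CPM. Slc17a7 had at most 3 counts, and Slc17a6 had 16 and 19 counts in neonates and 9 and 3 in adults. At the lower filter Slc17a6 was not called (log2 fold change 1.68, SE 0.82, adjusted p = 0.12 in edgeR).

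Of 8 uptake transporter genes tested, 3 were called, all of them higher in adults, and 5 were not called. Among all genes tested, 13.2% were called higher in adults and 7.68% higher in neonates. Slc6a13 and Slc1a7 reached the filter of 1 CPM through the adult libraries alone, so a call toward neonates was not possible for them. Slc6a13, a GABA transporter, had 0 and 6 counts against 45 and 43 (adjusted p = 0.0036), and its fitted log2 fold change was -2.68 without neonate replicate 1 and -8.40 without neonate replicate 2. The glutamate transporter Slc1a7 was at 0.310 and 0.390 CPM against 2.43 and 2.85 CPM (log2 fold change -2.90, SE 0.40, adjusted p = 0.00028). Of the chloride carriers that set the direction of GABA-A currents, Slc12a2, which brings chloride in, had 80.4 and 81.8 against 101.3 and 102.4 CPM (log2 fold change -0.33, adjusted p = 0.0046). Slc12a5, which takes chloride out, had 6.76 and 6.24 against 4.96 and 5.64 CPM (log2 fold change 0.29, adjusted p = 0.28).

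Of the partners of GABA receptors, Lhfpl4, which binds GABA-A receptors and clusters them at inhibitory synapses, had 9 and 2 counts in neonates and 79 and 72 in adults. Its log2 fold change was -3.58 (SE 0.59, adjusted p = 0.00073), and it was -4.99 without neonate replicate 1 and -2.86 without neonate replicate 2. Gphn, the inhibitory scaffold gephyrin, had 31.0 and 30.9 against 28.4 and 25.6 CPM (adjusted p = 0.11).

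Partners of AMPA receptors were called in both directions. Cacng4, an auxiliary subunit of AMPA receptors, had 16.9 and 16.8 CPM in neonates and 5.33 and 4.59 CPM in adults (log2 fold change 1.76, SE 0.17, adjusted p = 4.1e-05). Cnih2, which helps AMPA receptors reach the surface, had 28.3 and 29.8 against 12.0 and 10.1 CPM (log2 fold change 1.40, SE 0.13, adjusted p = 2.8e-05). The pentraxins that gather AMPA receptors moved apart. Nptx2 was higher in neonates (63.2 and 50.9 against 19.2 and 15.3 CPM, log2 fold change 1.73) and Nptx1 higher in adults (1.75 and 3.31 against 14.3 and 10.5 CPM, log2 fold change -2.30).

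Dlg2, a scaffold of excitatory synapses, was higher in adults, at 6.00 and 4.18 against 22.1 and 18.9 CPM (log2 fold change -2.01, adjusted p = 4.5e-05), as was the auxiliary subunit gene Cacng3, at 14 and 13 against 53 and 37 counts (adjusted p = 0.015 in edgeR and 0.060 in DESeq2). Dlg4, the related scaffold PSD-95, had 52.4 and 51.2 against 61.7 and 66.1 CPM, a log2 fold change of -0.30 (adjusted p = 0.015) that was below 2-fold. The cerebellins Cbln1 and Cbln2, which join delta receptors to presynaptic neurexins, were higher in neonates with log2 fold changes of 1.03 and 1.08 (adjusted p = 0.017 and 0.015). Without adult replicate 1 neither was called, at 0.73 (adjusted p = 0.15) and 0.88 (adjusted p = 0.13), and Cbln1 was also lost without neonate replicate 2 (0.79) and Cbln2 without neonate replicate 1 (0.93). Slc1a7, Slc6a13, Lhfpl4 and Cacng3 reached the filter of 1 CPM through the adult libraries alone and missed it without either of them. Only a call toward adults was therefore possible for these genes.

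**Figure D3:**
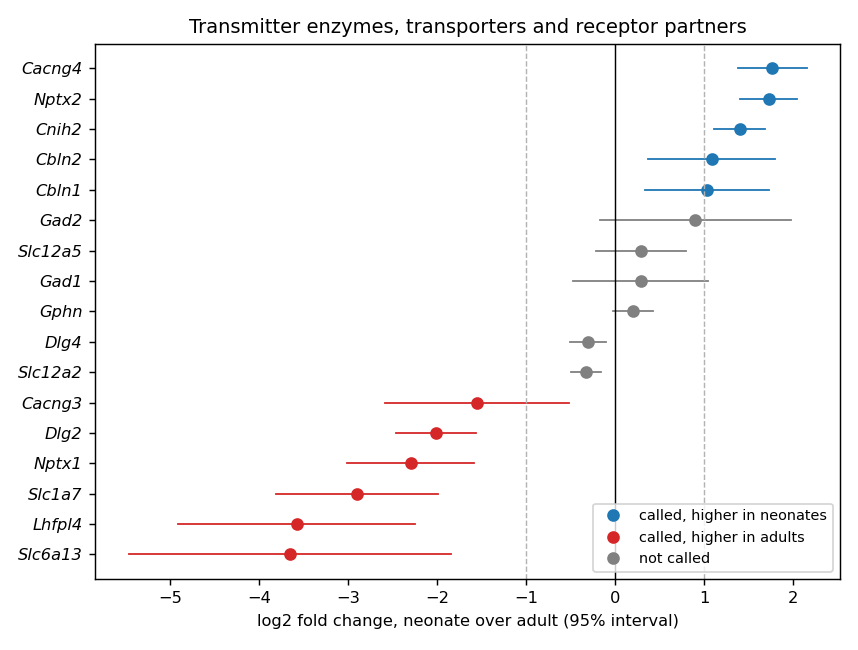
Log2 fold change, neonate over adult, with 95% intervals, of 11 of the called genes among enzymes, transporters and receptor partners and of 6 fixed reference genes that were not called (grey). Blue marks genes higher in neonates, red genes higher in adults, and dashed lines 2-fold. Slc6a13 and Lhfpl4 lie farthest toward adults and Cacng4 and Nptx2 farthest toward neonates.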

How the data were processed

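CBs of neonates and adults gave 4 libraries, 2 per age. Estimated counts per gene were deposited by the authors, made from trimmed, poly A+ selected reads with STAR and Salmon (1.5.2 per the processing notes) on rat build Rnor_6.0, without normalization or filter. Fractional estimates, which arise where reads fit several sequences, made up 5.02% to 6.19% of genes, and those of members were within 0.001 of a whole number. The strandedness of the counting is not given in the sources used here, so that overlapping genes (RefSeq lists coding ones inside or across Gria1, Grin1, Grin2d, Grin3a, Grin3b, Grik1, Grm3 and Grm7) cannot be told apart by strand.

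Counts were rounded and 634 genes that RefSeq (GRCr8) annotates as non-coding were removed by symbol. Genes with at least 1 CPM in 2 libraries were tested, neonate over adult, with edgeR 4.0.16 (TMM, quasi-likelihood, Benjamini-Hochberg) in R 4.3.3, without covariates. Standard errors are the log2 fold change over the root of F. All 4 libraries entered each fit. Replicates are separate pools per the labels, and each differed from its partner beyond sampling noise (chi-square per degree of freedom 32.9 and 15.5). Ratios and tables were computed in Python 3.11.15 with scipy 1.17.1.

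Alternatives were DESeq2 1.42.0, limma-voom 3.58.1, RLE factors, library size alone, other filters, all genes kept, no minimum fold, a replicate block and each library left out. Some members, partners and markers are counted but not reported here by name. Membership follows from the symbol, but the gene families and lists were chosen with earlier results of these data known. Named are the members with their values or range, the partners called, up to 12 in each direction by p, and 9 partners set by name, while Slc17a8, Slc38a3 and Slc1a1 were added after their values were seen. Of those 9, Gad1, Gad2, Slc12a2, Slc12a5, Gphn and Dlg4 were tested. Gene lengths per transcript were not used here, so levels are not compared between genes.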

Additional observations from a re-analysis of the deposited data

How the results depend on the processing

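Of 239 values for the 19 members tested, 224 kept their direction and side of the call rule under the alternatives, 3 lost the call, 2 gained it and 10 changed sign, none of the latter in a called member. Under library size alone 704 genes in place of 1063 were called higher in neonates, the members' median was -0.16, 3 partners in place of 5 were called higher in neonates, and the log2 fold changes of Gria3 (-0.13), Gria4 (-0.18), Grin2c (-0.0096), Grin2d (-0.022) and Grik2 (-0.16) changed sign. This setting moved the median of all genes to -0.25, and its calls are then 21.6% higher in neonates in place of 36.8%. With a mean of at least 5 CPM, 656 genes were called higher in neonates and 1168 in adults, and 3 and 2 partners, from fewer genes tested. With at least 0.1 CPM, 5 members were called higher in neonates. With no minimum fold, 4325 and 4301 genes were called, and 6 members were higher in neonates. Leaving out 1 library gave log2 fold changes from -0.18 to 0.30 for Gria4, -0.089 to 0.54 for Grin2d and -0.074 to 0.25 for Grik2, and between 3 and 5 partners called higher in neonates and 3 and 7 in adults. Toward neonates, Cbln1 and Cbln2 lost their calls without adult replicate 1, and toward adults Slc1a7, Slc6a13, Lhfpl4 and Cacng3 missed the filter without either adult library. Between 4 and 7 members were then called higher in adults and 3 in neonates. Cacng3 had an adjusted p of 0.060 in DESeq2. With a replicate block, 1071 and 1866 genes, 3 and 6 members and 5 and 7 partners were called, and it changed the call of no member tested. Deviations of same-numbered libraries from their age mean had a correlation across genes of -0.015, so that the replicate numbers gave no sign of pairing. By the paper's methods part of the litter was kept until day 21, so neonates and adults may have been littermates. With 2 libraries per age, the correlation cannot show whether pools of different ages shared litters. Subunit shares per kilobase were not run, as no transcript length was used. Members under 1 CPM rest on few counts, which limits what can be seen in them.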

Other observations

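Several low genes of the transmitter systems differed widely between the neonatal libraries. Neonate replicate 2 had more than neonate replicate 1 of Gabra5 (1.84 against 0.507 CPM), Grik1 (1.78 against 0.338 CPM), Gabra4 (0.891 against 0.282 CPM), Gad2 (3.45 against 1.30 CPM) and Slc38a3, a glutamine transporter (2.37 against 0.817 CPM). The glutamate transporter gene Slc1a1 went the other way, at 1.45 CPM in replicate 2 against 4.39 CPM in replicate 1, and so did the parathyroid marker Pth, at 208 against 1773 CPM. These genes were chosen after their values were seen.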
